A study of Mus musculus with 2 samples.

Results

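The proteasome subunit genes of the mouse were described in total RNA from the heart. They were taken as the genes whose symbol is Psma, Psmb, Psmc, Psmd or Psme followed only by a number and that have at least 1 transcript annotated protein_coding. This gave 43 genes of 55536 mouse genes in the gene tables. Psmc3ip (0.83 and 0.85 TPM in the 2 animals) and Psme2b (1.00 and 0.44 TPM), whose symbols carry letters after the number, were left out by that rule. The study has 1 group of 2 animals: adult B6CASTF1/J females, the first generation of a cross of the C57BL/6J and CAST/EiJ strains, 8 to 10 months old, with no treatment in the labels. Replicate 1 is animal 1 and replicate 2 is animal 3; both carry the same donor identifier, so that they are separate animals rests on these animal numbers. Each library was made from 300 ng of RNA with a kit that keeps the strand. Every gene was assigned to the reference annotation of a single strain, so the 2 parental copies of a subunit gene are not told apart here.

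The proteasome is the large protease that degrades proteins tagged with ubiquitin. Its barrel, the 20S core, is made of outer rings of alpha subunits and inner rings of beta subunits, and 3 of the beta subunits carry the catalytic threonines. A cap, the 19S particle, binds and unfolds the substrate: its base holds a ring of ATPases and its lid removes the ubiquitin chain. Under interferon, cells can replace the 3 constitutive catalytic subunits by immune forms, which changes the peptides made for antigen presentation. In heart muscle the proteasome is known for the turnover of sarcomere proteins.

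Levels are in TPM, the deposited read abundance per unit of transcript length scaled to the same total in each library, so different genes can be set side by side. Means are given ± SD over the 2 animals (n = 2). With 1 group there is no test between groups. The smallest two-sided p of an exact sign-flip test with this number of animals is 0.5, so differences are read against the spread between the animals. The libraries held 42223411 and 40553237 expected counts over genes, in which a read that fits several genes is divided among them. A count of 0 allows a true level of up to 3 of these counts, and this limit covers counting error only. All 6 cardiomyocyte markers examined were abundant, from 355 TPM for Ryr2 to 8814 TPM for Myh6. Endothelial, fibroblast and macrophage markers were also present in both libraries, so the levels are those of the whole tissue. In such bulk RNA, fewer cells of a type and less RNA per cell cannot be told apart.

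Most subunit genes were expressed well above the typical gene. At 1 TPM or more in both animals stood 41 of the 43, where 48.7% of all protein-coding genes did. The median over the 43 was 39.1 TPM in replicate 1 and 35.6 TPM in replicate 2, beside 8.48 and 7.42 TPM for the median of the 10721 expressed protein-coding genes. Together they held 0.175% and 0.157% of all TPM, and 0.463% and 0.472% of the TPM of nuclear protein-coding genes. The 31 genes of the constitutive 26S particle, which is the 20S core with its 19S cap, lay within 4.97-fold of each other, from Psma5 at 17.0 ± 1.25 TPM to Psmb6 at 84.7 ± 9.58 TPM. Psma5 exceeded 72.2% of the expressed protein-coding genes and Psmb6 exceeded 94.2% of them. The remaining genes spread more widely: Psmb8, Psmb9 and the assembly chaperones of the base stood below the median of expressed protein-coding genes, and the activator subunit Psme1 stood above every other member in the gene table.

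**Figure D1:**
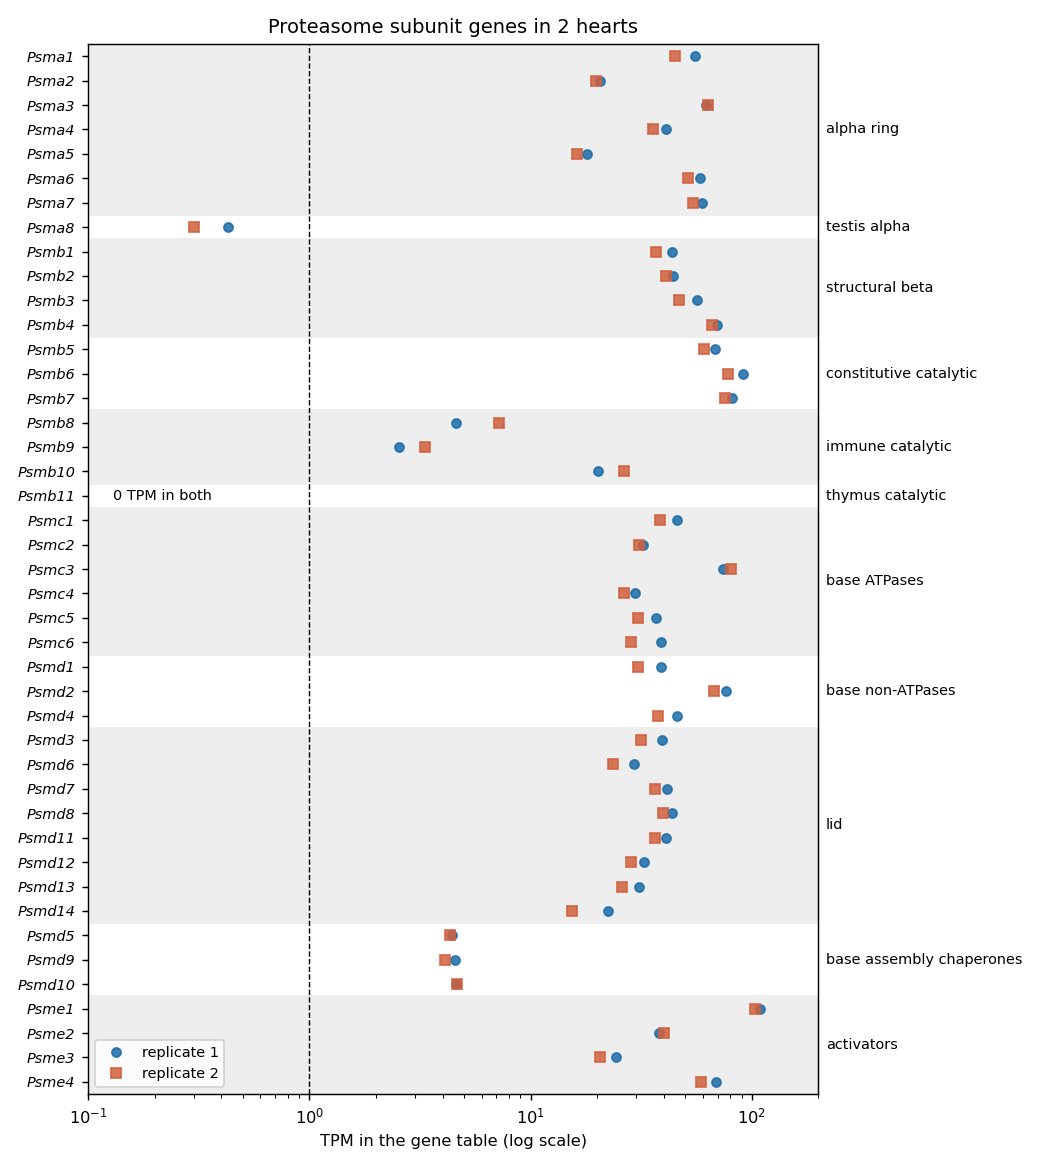
TPM of each of the 43 genes on a log axis, with a circle for replicate 1 and a square for replicate 2; genes are grouped by role, and the dashed line is 1 TPM. The constitutive core and cap genes sit between 15.4 and 91.4 TPM, Psmb8 and Psmb9 lie below 8 TPM, and Psmb11 is listed at 0 in both.

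Both kinds of catalytic subunit were measured in each heart. Psmb5 carries the chymotrypsin-like site and its immune counterpart is Psmb8; Psmb6 carries the caspase-like site and is replaced by Psmb9; Psmb7 carries the trypsin-like site and is replaced by Psmb10. The genes lie apart in the genome (mm10): Psmb5 at chr14:54614119-54618022, Psmb6 at chr11:70525367-70527858, Psmb7 at chr2:38588036-38644087, Psmb8 at chr17:34197721-34201454, Psmb9 at chr17:34181987-34187764 and Psmb10 at chr8:105935735-105938444. The 60 coding bases around the catalytic threonine of each are given here, because they show how alike the members of a pair are where the active site begins. They were read from the GENCODE M21 transcripts, 5′ to 3′ on the coding strand, and capitals mark the codon of the threonine that becomes the first residue of the mature subunit.
Psmb5: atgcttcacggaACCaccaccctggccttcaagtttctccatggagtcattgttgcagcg
Psmb8: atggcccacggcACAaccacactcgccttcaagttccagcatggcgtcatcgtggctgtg
Psmb6: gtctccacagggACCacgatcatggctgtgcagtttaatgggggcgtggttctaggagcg
Psmb9: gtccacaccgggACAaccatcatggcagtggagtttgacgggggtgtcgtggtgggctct
Psmb7: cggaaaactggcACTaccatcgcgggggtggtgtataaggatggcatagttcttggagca
Psmb10: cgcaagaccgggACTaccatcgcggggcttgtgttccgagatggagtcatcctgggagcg

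The threonine is codon 60 of Psmb5, 73 of Psmb8, 34 of Psmb6, 21 of Psmb9, 44 of Psmb7 and 40 of Psmb10, counted from the start codon. It lies in exon 1 of Psmb5, exon 3 of Psmb8 and exon 2 of the other 4. The stretches were identical at 45 of 60 bases between Psmb5 and Psmb8, at 43 between Psmb6 and Psmb9 and at 42 between Psmb7 and Psmb10. Over the aligned coding sequences the identity was 67.7%, 66.2% and 63.3% in the same order. No stretch of 31 bases was shared within any pair, so a read that long without mismatches is assigned to 1 member of a pair only. Of such stretches in Psmb5, 74.0% also occur in pseudogenes or other genes, and none of those in the 3 immune genes do.

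The constitutive member exceeded the immune member in every pair and in both animals. Psmb5 was at 68.1 and 60.7 TPM in replicates 1 and 2, and Psmb8 was at 4.58 and 7.21 TPM. This is a ratio of 14.8-fold in replicate 1 and 8.40-fold in replicate 2, or 3.48 ± 0.58 on the log2 scale. Psmb6 was at 91.4 and 77.9 TPM and Psmb9 at 2.55 and 3.32 TPM, the widest of the 3 gaps at 35.7-fold and 23.4-fold (log2 4.85 ± 0.43). Psmb7 was at 81.4 and 75.6 TPM and Psmb10 at 20.1 and 26.4 TPM, the narrowest gap at 4.05-fold and 2.87-fold (log2 1.77 ± 0.35). The lowest constitutive value, 60.7 TPM for Psmb5 in replicate 2, was above the highest immune value, 26.4 TPM for Psmb10 in the same animal. Each ratio is over 5 times its SD between the animals, and each was smaller in replicate 2 than in replicate 1. The order of the 3 ratios was the same in both animals.

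The 3 constitutive genes lay close together, with 78.5 ± 4.09 TPM as the median of the set. Psmb6 exceeded Psmb7 by 0.11 ± 0.09 on the log2 scale, a difference near the spread between the animals, and in the table made from the reads directly (the FASTQ-derived table) the order was the opposite (-0.13 ± 0.13). Psmb7 exceeded Psmb5 by 0.29 ± 0.04 in the gene table and by 0.51 ± 0.02 in the FASTQ-derived table. The immune genes were 7.91-fold apart, from Psmb9 at 2.94 ± 0.54 TPM to Psmb10 at 23.2 ± 4.45 TPM. Psmb10 exceeded Psmb8 by 2.00 ± 0.18 on the log2 scale and Psmb8 exceeded Psmb9 by 0.98 ± 0.19. Among expressed protein-coding genes, Psmb10 exceeded 79.1%, Psmb8 39.9% and Psmb9 19.2%.

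Summed over the 3 pairs, the immune genes held 10.1% of catalytic subunit TPM in replicate 1 and 14.7% in replicate 2 (12.4 ± 3.22%). In the FASTQ-derived table these shares were 11.2% and 14.99%. The share depends on which transcripts are counted. In the alignment-derived transcript table, transcripts not annotated protein_coding (retained introns, processed transcripts and targets of nonsense-mediated decay) held 59.8 ± 2.45% of Psmb10, 44.6 ± 7.17% of Psmb8 and, with a wide spread, 16.9% and 43.1% of Psmb9. They held 6.92 ± 1.69% of Psmb6, 0.155 ± 0.098% of Psmb7 and none of Psmb5, for which the annotation has no such transcript. With protein_coding transcripts only, Psmb8 was at 2.31 and 4.36 TPM, Psmb9 at 2.11 and 1.89 TPM, and Psmb10 at 8.42 and 10.2 TPM. The pair ratios then became 4.34 ± 0.76 for Psmb5 over Psmb8, 5.29 ± 0.08 for Psmb6 over Psmb9 and 3.08 ± 0.27 for Psmb7 over Psmb10 on the log2 scale. The immune share became 5.17% and 7.32% (6.24 ± 1.52%), and 6.55% and 9.16% in the FASTQ-derived table. In all 4 countings the share was higher in replicate 2.

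**Figure D2:**
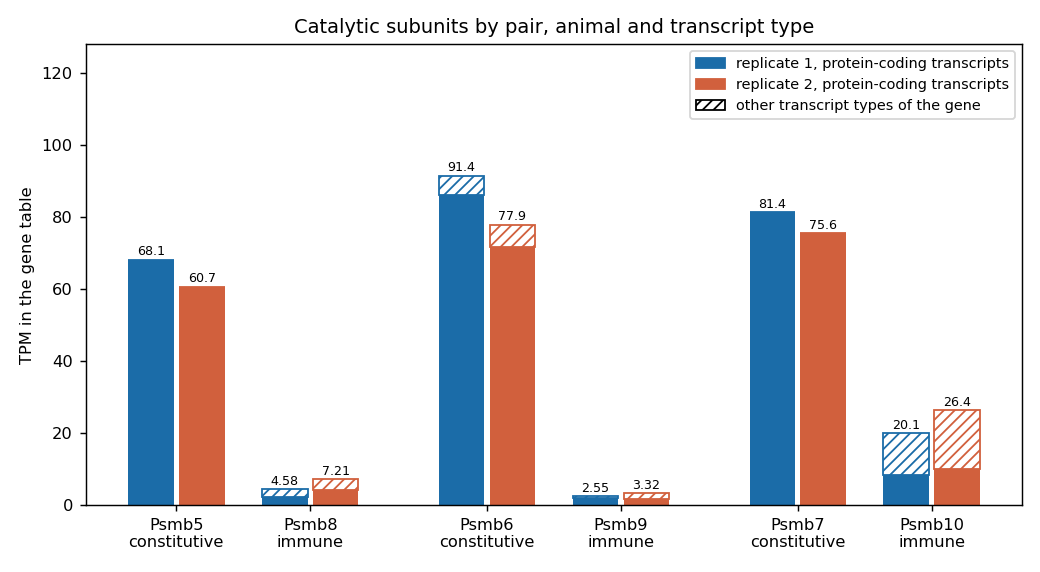
Bars from 0 give the TPM of the 6 catalytic subunit genes in replicate 1 (blue) and replicate 2 (orange); the filled part is protein_coding transcripts and the hatched part all other transcripts of the gene, and the number above a bar is the gene's TPM. Every constitutive bar is above every immune bar, and the hatched part is the larger part of the Psmb10 bars.

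Psmb8 and Psmb9 were each split over several transcripts. Of Psmb8, Psmb8-203 (protein_coding) held 55.4 ± 7.17% and the retained-intron transcript Psmb8-205 held 39.4 ± 13.2% in the alignment-derived table. In the FASTQ-derived table Psmb8-203 held 45.7 ± 7.14%, the coding transcript Psmb8-201 held 40.9 ± 2.88% and Psmb8-205 held 18.3% in replicate 1 and 0 in replicate 2. These 2 tables thus disagree on which form of Psmb8 accompanies Psmb8-203. Psmb9-204 (protein_coding) led Psmb9 in both tables, at 37.8 ± 3.26% and 41.3 ± 7.55%. Psmb9 rests on 71 and 109 expected counts in all, the fewest of any expressed subunit gene, and Psmb8 on 145 and 222. Of Psmb10, Psmb10-201, its leading coding transcript, held 40.2 ± 2.45% and 44.9 ± 0.44%, and the retained-intron transcript Psmb10-205, of 554 bases, held 29.0 ± 6.79% and 31.8 ± 10.4%.

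Psmb11, the catalytic subunit of the thymus cortex, is listed at 0 TPM with 0 expected counts in both animals. Psma8, an alpha subunit of the testis that stands in for Psma7, was at 0.43 and 0.30 TPM on 16 and 6 expected counts. The testis markers Prm1, Prm2 and Tnp1 and the thymus cortex markers Foxn1 and Prss16 were at 0 in both animals, while Ddx4 was at 0.02 and 0.03 TPM and Ccl25 at 1.24 and 0.67 TPM. Psmb11 and Psma8 were the only members under 1 TPM in either animal.

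The alpha ring gates the entrance of the core. Its 7 genes had a median of 49.98 ± 7.34 TPM and lay at a higher and a lower level: Psma1, Psma3, Psma4, Psma6 and Psma7 lay between 35.6 and 63.1 TPM in both animals, whereas Psma2 and Psma5 did not exceed 20.6 TPM in either. Psma3 was the highest in the gene table, at 61.8 and 63.1 TPM. With protein_coding transcripts only it was at 36.9 and 36.5 TPM, below Psma1, Psma6 and Psma7. Psma5 was the lowest, at 17.9 and 16.1 TPM, 3.67-fold below Psma3. Psma2, at 20.6 and 19.8 TPM, was 14.5 ± 0.034 TPM in the FASTQ-derived table, where Psma5 was at 17.3 TPM, so that the order of these neighbours depends on the table.

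The structural beta subunits Psmb1 to Psmb4 complete the inner rings without a catalytic site. Their median was 47.1 ± 4.57 TPM. Psmb4 was highest, at 69.4 and 66.1 TPM, and Psmb1 lowest, at 43.5 and 36.9 TPM, beside Psmb2 at 44.1 and 40.8 TPM. The order of Psmb1 and Psmb2 was the opposite in the FASTQ-derived table, so it cannot be read. In the gene table Psmb4 was above the catalytic Psmb5 in both animals and below the catalytic Psmb6 and Psmb7. These orders depend on the counting: with protein_coding transcripts only Psmb4 was at 61.4 and 53.3 TPM, below Psmb5, and in the FASTQ-derived table it was above Psmb6 in replicate 2 (74.8 and 68.9 TPM).

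The 19S cap was lower than the core. The median over its 17 genes was 39.0 and 30.8 TPM, beside 57.6 and 49.2 TPM over the 14 constitutive core genes, a log2 difference of 0.62 ± 0.08 between the medians (1.48-fold and 1.601-fold). The FASTQ-derived table gave 0.59 ± 0.01. The groups overlapped gene by gene, since Psma5 and Psma2 were below most cap genes and Psmc3 was above most core genes.

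Of the 6 ATPases of the base, which thread the substrate into the core, Psmc3 stood out at 74.5 and 80.7 TPM. The other 5 lay between 26.6 and 46.1 TPM. Psmc4 was the lowest in the gene table, at 29.8 and 26.6 TPM (with protein_coding transcripts only, Psmc6 was, at 17.6 and 16.9 TPM), and the ring's median was 34.3 ± 5.23 TPM. Psmd2, a scaffold of the base, was at 76.8 and 67.2 TPM and the other large scaffold, Psmd1, at 38.9 and 30.7 TPM. Between them lay Psmd4, a ubiquitin receptor, at 45.7 and 37.8 TPM. Psmd2 was 54.8 TPM on average in the FASTQ-derived table, still the highest of the 3.

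The lid was more even than the alpha ring and the ATPase ring. Its 8 genes had a median of 32.9 ± 4.15 TPM and were within 2.20-fold of each other. Psmd8 was highest, at 43.6 and 39.8 TPM. Psmd14, the deubiquitinase that cuts the chain from the substrate, was lowest, at 22.5 and 15.4 TPM on 886 and 722 expected counts. With protein_coding transcripts only, Psmd13 was at 15.6 and 13.6 TPM, below Psmd14 at 16.3 and 14.5 TPM. In the gene table the other 7 lid genes lay at 23.5 TPM or more in both animals.

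Psmd5, Psmd9 and Psmd10 carry the subunit prefix but are chaperones that help assemble the base and leave it afterwards. In the gene table they stood at one low level: 4.38 ± 0.078, 4.32 ± 0.297 and 4.63 ± 0.014 TPM, 1.07-fold between the highest and the lowest. Their median of 4.43 ± 0.148 TPM was well below Psma5, the lowest subunit of the constitutive particle. In the FASTQ-derived table Psmd5 led in both animals, at 6.57 and 6.03 TPM, beside 3.81 and 4.80 TPM for Psmd9 and 4.50 and 4.95 TPM for Psmd10. The chaperones of the core, which are not members, covered a wider range: Pomp, which guides the beta ring, was at 46.4 and 44.9 TPM, near the subunits themselves, and Psmg1 to Psmg4 lay between 2.38 and 12.9 TPM.

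The activators open the gate of the core without using ubiquitin. Psme1 and Psme2 form the ring known as PA28 alpha/beta, which interferon induces, Psme3 forms the nuclear ring PA28 gamma, and Psme4 is the single chain PA200. Psme1 was the highest of all members in the gene table, at 109.3 and 103.7 TPM; with protein_coding transcripts only it was at 72.2 and 66.9 TPM, below Psmb6 and Psmb7. Psme2 was at 38.2 and 39.9 TPM, 2.86-fold and 2.6-fold below its partner, and Psme3 at 24.4 and 20.5 TPM. Psme4 was at 68.6 and 58.9 TPM, above the median of the constitutive core by 0.25 ± 0.005 on the log2 scale, and above Psme3 by 1.505 ± 0.023. In the FASTQ-derived table these 2 differences were smaller, at 0.15 ± 0.011 and 0.98 ± 0.008, so their size depends on the table. Psme3 over the mean of Psme1 and Psme2 was -1.70 ± 0.15 on the log2 scale. It was -1.35 ± 0.02 in the FASTQ-derived table and -1.10 ± 0.13 with protein_coding transcripts only, since 34.7 ± 1.12% of Psme1 and 35.3 ± 4.47% of Psme2 lay on other transcript types.

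The 2 animals were then compared gene by gene, as the log2 of TPM + 0.1 in replicate 2 over replicate 1. The median over 11876 genes was -0.18 and was set to 0. Each animal is 1 library, so these differences have no replicate check. Of the 41 subunit genes compared, 21 were higher in replicate 2 and 20 lower, where 50% of all genes were higher by construction, and 35 lay within 1.2-fold, where 73.6% of all genes did. Without the centring 7 were higher: Psma3, Psmc3, Psmd10, Psme2 and the 3 immune catalytic genes. The median over the members was 0.016, so the set as a whole moved with the typical gene. On expected counts 22 were higher, and 19 were in the FASTQ-derived table.

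Psmb8 was the only member 1.5-fold or more apart, where 5.78% of all genes were (3.23% higher and 2.55% lower in replicate 2). It was 1.77-fold higher in replicate 2, by 0.83 on the log2 scale of TPM, 0.79 on expected counts and 0.76 in the FASTQ-derived table. Higher by that size in all 3 measures were 1.3% of all genes. Just below the 1.5-fold line stood Psmb10, 1.49-fold higher, and Psmb9, 1.47-fold higher. On expected counts Psmb9 was past that line too. The next members, Psmd14 at -0.36 and Psmc3 at 0.30, differed by less on expected counts, at -0.12 and 0.09. No member was 2-fold or more apart, where 1.41% of genes were.

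All 3 immune catalytic genes were higher in replicate 2, with and without the centring. Psmb9 differed by 0.55 in TPM, 0.79 on expected counts and 0.57 in the FASTQ-derived table, and Psmb10 by 0.57, 0.46 and 0.43. With protein_coding transcripts only, the differences were 1.07 for Psmb8, 0.45 for Psmb10 and 0.03 for Psmb9, so that of Psmb9 rests on its other transcripts. The constitutive partners differed by 0.02 for Psmb5, -0.05 for Psmb6 and 0.08 for Psmb7. The deposited credibility intervals of TPM, whose level the sources used here do not give, ran for Psmb8 from 3.86 to 5.68 TPM in replicate 1 and from 6.21 to 8.32 TPM in replicate 2. Those of Psmb10 also did not overlap (17.9 to 22.7 and 23.3 to 28.9 TPM), and those of Psmb9 did (1.96 to 3.75 and 2.74 to 4.65 TPM). An interval of replicate 2 wholly above that of replicate 1 occurred for 2 members, Psmb8 and Psmb10, and for 1.44% of all genes. The reverse occurred for 19 members and 26.6% of all genes, before any centring.

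**Figure D3:**
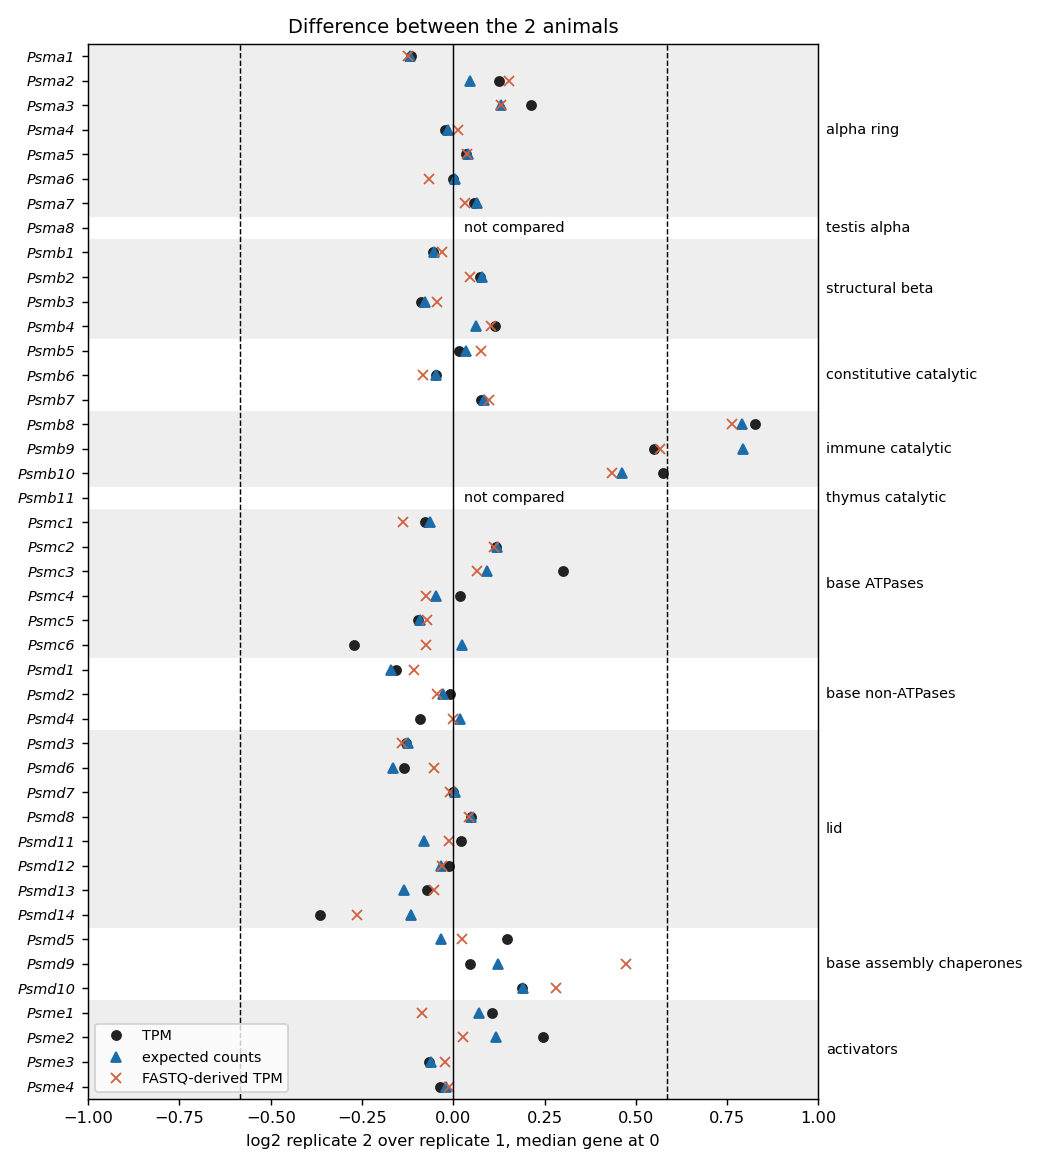
log2 of replicate 2 over replicate 1 for each gene, with the median of all genes set to 0, from TPM (circles), expected counts (triangles) and the FASTQ-derived table (crosses); dashed lines mark 1.5-fold. Psmb8 lies outside the line by all 3 measures, Psmb9 by expected counts only, Psmb10 lies just inside it, and no other member reaches it.

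By role, the core and the cap showed small differences of opposite sign. Of the 14 constitutive core genes 8 were higher in replicate 2, with a median of 0.03. Of the 17 cap genes 5 were higher, with a median of -0.07. On expected counts 9 core genes and 6 cap genes were higher, with medians of 0.04 and -0.05. With protein_coding transcripts only, 8 and 7 were higher, with medians of 0.01 and -0.01. The activators had 2 of 4 higher and a median of 0.04, with Psme2 at 0.25 and Psme1 at 0.11. Psmc6 was at -0.27 in TPM but at 0.02 on expected counts.

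Genes that share a pathway with the immune subunits were followed as lists. In the antigen processing list, 8 of 10 genes were higher in replicate 2, where 50% of all genes were by construction. The median was 0.24 (0.05 without the centring, and 0.12 with 7 of 10 higher in the FASTQ-derived table). Tap1, the peptide transporter subunit next to Psmb9, was at 1.62 and 2.54 TPM, a difference of 0.80. H2-K1, a class I heavy chain, was at 49.1 and 61.9 TPM (0.52), and B2m, the class I light chain, at 84.98 and 96.6 TPM (0.37). Lower in replicate 2 were Pdia3 (-0.37) and Erap1 (-0.13), and Tap2 was near 0 at 0.05. Of the 10 genes only Tap1 was 1.5-fold or more apart.

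Among genes that control subunit transcription, Nlrc5, the class I transactivator, was at 0.80 and 1.51 TPM. It differed by 1.02 in TPM and by 0.60 on expected counts. Nlrc5 was under 1 TPM in replicate 1, on 83 and 111 expected counts, and its credibility intervals overlapped (0.76 to 1.76 and 1.25 to 2.55 TPM). Irf1, an interferon response factor, was at 5.76 and 6.12 TPM (0.27). Nfe2l1, the factor that raises the constitutive subunits when the proteasome is blocked, was the most abundant of the list at 169.8 and 142.2 TPM (-0.07). Nfe2l2 was at 27.6 and 19.1 TPM (-0.35).

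**Figure D4:**
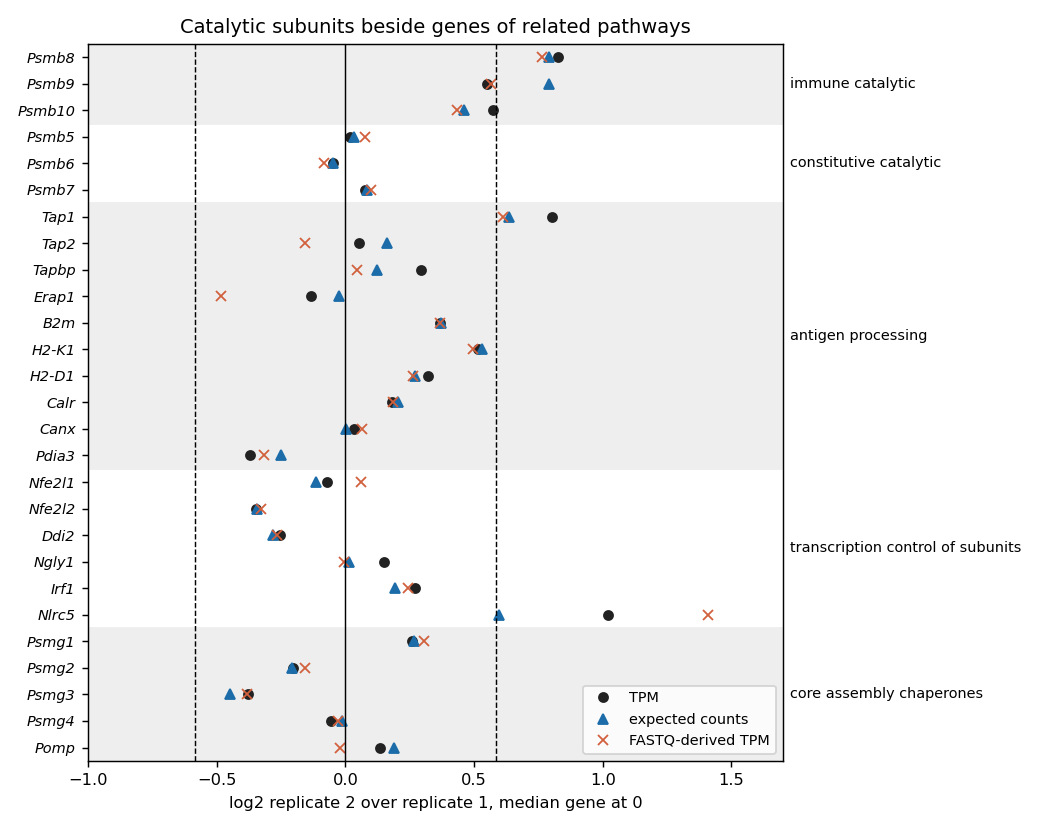
log2 of replicate 2 over replicate 1, with the median of all genes at 0, for the catalytic subunits and genes of 3 related lists that are not members, drawn by TPM (circles), expected counts (triangles) and FASTQ-derived TPM (crosses); dashed lines mark 1.5-fold. The 3 immune subunits, Tap1, H2-K1, B2m and Nlrc5 lie to the right of 0 by all 3 measures, and the constitutive subunits lie close to 0. In the related lists H2-D1, Tapbp, Calr, Canx, Irf1 and Psmg1 also lie to the right by all 3 measures. Pdia3, Erap1, Nfe2l2, Ddi2, Psmg2, Psmg3 and Psmg4 lie to the left by all 3.

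Markers of cell types that could carry the immune subunits were set beside this difference. All 10 macrophage markers were expressed, with summed levels of 87.6 and 72.4 TPM without the centring. With the centring, 5 were higher and 5 lower in replicate 2 (median -0.01). None of the 10 lymphocyte markers reached 1 TPM in both animals. They summed to 2.13 and 2.20 TPM without the centring. Of this, Ptprc, which other white blood cells also express, made 1.19 and 0.97 TPM. Cd3d was at 0.02 and 0 TPM, Cd3e at 0.04 and 0.28 TPM and Nkg7 at 0.10 and 0.28 TPM. Each of these 3 had at most 8 expected counts in a library, so the direction of the lymphocyte markers cannot be read. Of the 10 endothelial markers 9 were lower in replicate 2 with the centring, with a median of -0.23. Their sums without it were 282 and 210 TPM. The 6 fibroblast markers summed to 191 and 161 TPM, also without the centring. The part of these cells in the difference of Psmb8, Psmb9 and Psmb10 was not tested.

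Of 7 other parts and regulators of the particle, Adrm1, Sem1, Usp14 and Ecpas lay within the range of the cap subunits, and Uchl5, Psmf1 and Ube3c lay below all of them. The cap's ubiquitin receptor Adrm1 was at 29.7 and 31.4 TPM, its small subunit Sem1 at 32.3 and 30.97 TPM and its deubiquitinases Usp14 and Uchl5 at 28.5 ± 3.24 and 6.57 ± 0.57 TPM. Ecpas, a scaffold that binds the 26S particle, was at 69.6 and 60.4 TPM, above most cap subunits. The inhibitor Psmf1 was at 10.3 and 8.65 TPM, and the ubiquitin ligase Ube3c at 14.3 and 12.5 TPM. Of these 7 regulators 3 were higher in replicate 2.

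Transcript types varied strongly between subunit genes of the same complex. At least 10% of the gene's TPM lay on transcripts not annotated protein_coding, in both animals, for 11 of the 41 expressed members in the alignment-derived table, where 34.5% of expressed protein-coding genes passed that line. In the FASTQ-derived table the count was 14, beside 37.6%. The median share over the members was 2.12% and 2.19%, and 4.36% and 5.85% in the FASTQ-derived table. After Psmb10 the highest shares in the alignment-derived table were those of Psmd13 (48.4 ± 1.41%), Psmc6 (47.6 ± 10.1%), Psmb8 and Psma3 (41.2 ± 1.29%), all constitutive genes except Psmb8. The order depends on the table. In the FASTQ-derived table Psma3 (74.8 ± 10.9%), Psmc6 (73.6 ± 2.80%) and Psmd13 (58.0 ± 2.88%) were above Psmb10 (55.1 ± 0.44%). Psmb8 was at 13.4 ± 10.0% there.

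Psmd13 was the only expressed member whose leading transcript in the alignment-derived table was not protein_coding. Psmd13-211, annotated as a target of nonsense-mediated decay, held 45.3 ± 2.79% of it there and 55.1 ± 2.26% in the FASTQ-derived table. Psma3 divided differently in the tables: Psma3-204 (protein_coding) led with 37.2 ± 9.36% in one, and Psma3-201 (nonsense-mediated decay) with 52.3 ± 11.3% in the other. Of Psmc6, Psmc6-201 (protein_coding) held 52.4 ± 10.1% and 26.4 ± 2.80%. Psma2, Psmb5, Psmd10 and Psmd12 have no transcript of another type in the annotation, so their share is 0 by construction. Psma5 has 1 such transcript, listed at 0 TPM in both tables. The leading transcript was the same in both tables for 36 of 42 genes, the exceptions being Psma3, Psmb1, Psmc6, Psmd4, Psmd5 and Psmd9. Psmb1 is the sharpest case, since Psmb1-201 held 81.8 ± 0.79% in one and Psmb1-204 held 81.5 ± 0.70% in the other, both protein_coding.

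**Figure D5:**
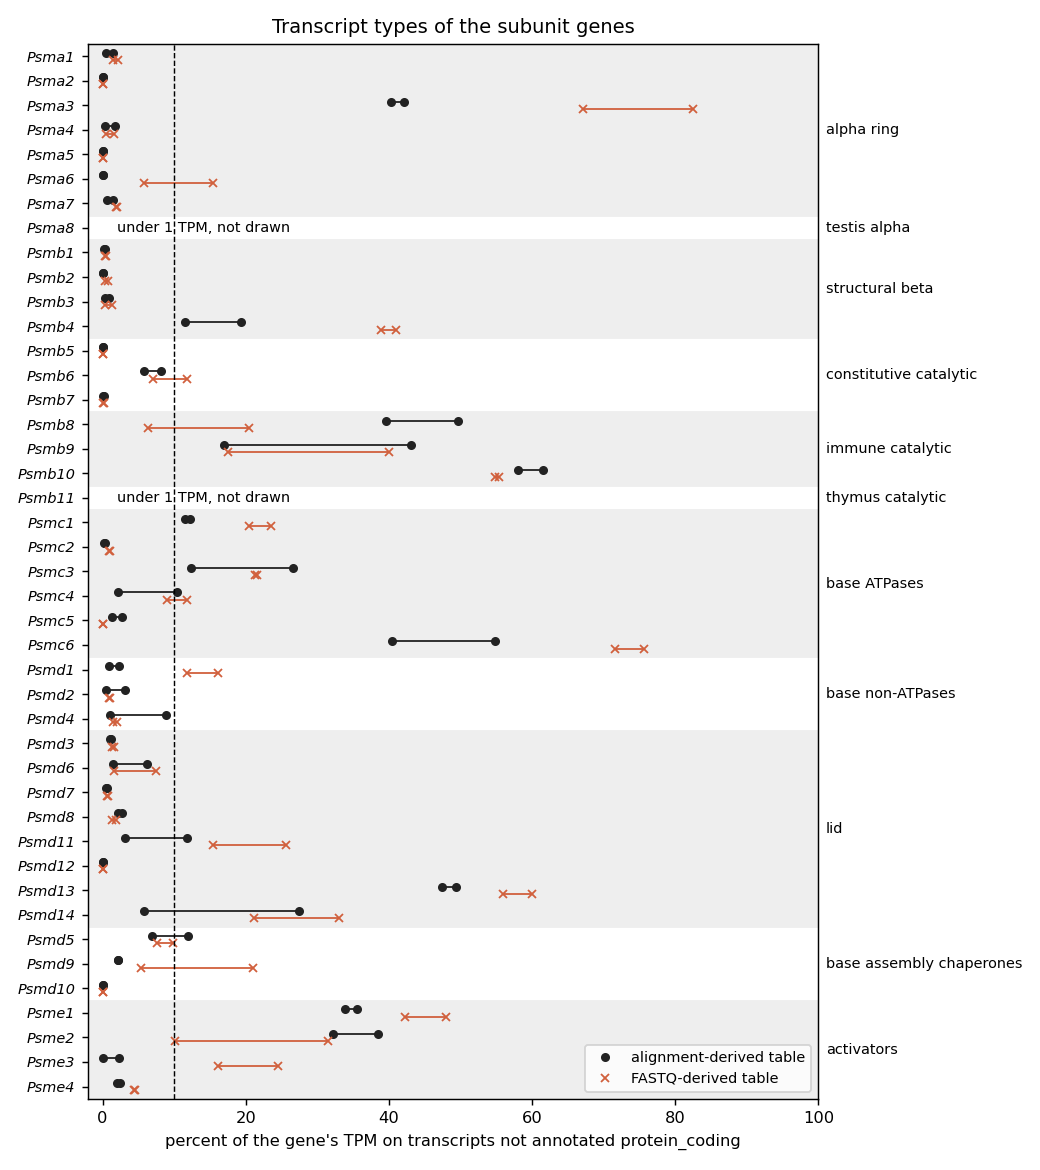
Percent of each gene's TPM on transcripts not annotated protein_coding, with a line joining the 2 animals, in the alignment-derived table (circles) and the FASTQ-derived table (crosses); the dashed line is 10%. Psmb10, Psmd13, Psmc6 and Psma3 lie above 40% in both animals in the alignment-derived table, while Psmb7 lies near 0.

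The gene totals depended less on the table. No member was 1.5-fold or more apart between the gene table and the FASTQ-derived table in both animals, where 7.38% of all genes and 2.84% of protein-coding genes were. The farthest were Psmd5 (log2 0.56 and 0.47, FASTQ-derived over gene table), Psme3 (0.44 and 0.52), Psmc6 (0.38 and 0.61), Psma2 (-0.51 and -0.44) and Psmd2 (-0.39 in both animals).

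Several subunit genes have near-identical copies elsewhere in the genome, among which short reads may be divided. Of the 31-base stretches in the leading coding transcript, none was found in another gene's transcripts for 21 of the 43, Psmb8, Psmb9 and Psmb10 among them, and more than 50% were for 5: Psma3 (79.0%), Psmb5 (74.0%), Psmb3 (66.8%), Psme2 (66.2%) and Psma5 (64.0%). The copies with most in common were listed below these 5 members in both animals. Those levels rest on the same division of reads, so they cannot show how much signal the copies hold. Gm3375, the processed pseudogene nearest to Psmb5, was at 6.80 and 5.52 TPM, Gm13835, nearest to Psma3, at 3.98 and 1.06 TPM, and Gm8394, nearest to Psma5, at 2.71 and 3.41 TPM. AC114990.1, nearest to Psmb3, was at 7.49 and 6.12 TPM, and Psme2b, nearest to Psme2, is given above. How the counting divided such reads is not known here, so the values of these 5 members are uncertain to that extent. The 4 pseudogenes named after Psmb5, Psmb6 and Psmb7 were all listed at 0 TPM in the gene tables.

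Reads can also be shared with genes on the other strand. Psmb9 overlaps Tap1, Psmd13 overlaps Sirt3 (25.0 and 21.9 TPM), Psme1 overlaps Emc9 (23.9 and 21.3 TPM) and Psmc3 overlaps Slc39a13 (8.64 and 7.63 TPM), each on the opposite strand, and Psma2 overlaps AW209491 (4.77 and 3.58 TPM) on its own strand. The kit keeps the strand, but the sources used here do not say whether the counting used it.

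The 43 genes lay on 16 chromosomes, with 8 on chromosome 11. Psmb9 and Psmb8 are 9957 bases apart on chromosome 17 in the class II region, with Tap1 starting inside the annotated span of Psmb9 and Tap2 starting 2073 bases past the end of Psmb8. Psmb10, the third immune gene, is on chromosome 8, away from this cluster. Psmb5 and Psmb11 lie 3411 bases apart on chromosome 14 at 64.4 ± 5.28 and 0 TPM, and Psme1 and Psme2 lie 5912 bases apart on the same chromosome in opposite directions. Neighbours thus differed in level in each case in the gene table, Psmb8 being 1.79-fold and 2.17-fold above Psmb9 and Psmb11 being listed at 0. With protein_coding transcripts only, Psmb8 and Psmb9 were close in replicate 1 (2.31 and 2.11 TPM) and apart in replicate 2 (4.36 and 1.89 TPM). The RefSeq start sites of Psmb9 and Tap1 are separated by 225 bases, so that their 300-base promoter windows share 275 bases.

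Promoter windows of RefSeq (GRCm38.p6, 250 bases before to 50 after the start) were matched for 36 of the 43 genes by symbol. The unmatched genes were Psma8, Psmb1, Psmb2, Psmb7, Psmc3, Psmd3 and Psmd7. The windows of the members had a median of 57.3% G+C and 19 CpG, beside 52.7% and 7 over all 32851 windows. On either strand, the core of the antioxidant response element, TGACNNNGC, which Nfe2l1 and Nfe2l2 are known to bind, was found in 6 of 36 members (16.7%), beside 14% of genes. The interferon-stimulated element (GAAA, any 2 bases, GAAA) was found in 4 (11.1%, beside 3.99%) and the gamma-activated site TTCNNNGAA in 2 (5.56%, beside 9.55%). No match of one motif overlapped a match of another. Among catalytic genes, TGACNNNGC was found in Psmb5 and Psmb6, and TTCNNNGAA in Psmb8. These 3 places are shown with the match in capitals, because they are where the searched motifs meet the catalytic pairs. The stretches of Psmb5 (chr14:54618023-54618082, minus strand) and Psmb6 (chr11:70525297-70525356, plus strand) lie outside annotated exons. The match of Psmb8 (stretch chr17:34198088-34198116, plus strand) lies within an annotated exon.
Psmb5: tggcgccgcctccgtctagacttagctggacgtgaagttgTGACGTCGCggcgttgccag
Psmb6: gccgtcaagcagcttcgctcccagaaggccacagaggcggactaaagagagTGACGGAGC
Psmb8: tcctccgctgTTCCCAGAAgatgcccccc

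The match lies at bases 47 to 39 before the start of Psmb5, 9 to 1 before that of Psmb6 and 97 to 89 before that of Psmb8. None of the 3 motifs was found in the windows of Psmb9 and Psmb10. A match of letters is a description of the sequence, and binding was not measured here.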

How the data were processed

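Total RNA sequencing of 2 hearts (replicates 1 and 2, from the labels) was used. Per the deposited description files, reads were placed on mm10 with GENCODE M21 (aligner and quantifier: not given in the sources used here). Deposited by the authors were expected counts, TPM with credibility bounds (a signal in TPM units), and each transcript's percent of its gene from alignments, and estimated counts and TPM from the reads directly. From these, with Python 3.11.15, pandas 2.3.3 and numpy 2.4.6, levels, ratios (log2 of TPM + 0.01) and animal differences (log2 of TPM + 0.1, genes with a mean of 1 TPM and 20 counts) were computed; the difference calculation was tested on simulated data. Depth was 42223411 and 40553237 expected counts. Alternatives changed the pseudocount, threshold, table, scaling, unit and animals; protein_coding transcripts of the alignment-derived table were added after seeing the data. All members were accounted for; values were given by name for catalytic genes, the extremes of each role, and members low or far apart between animals or tables; Psma1, Psmd1, Psmd4 and other genes named besides were picked with their values known. The members and lists were chosen with earlier results of these data known. A few genes of the related lists are not reported here.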

Additional observations from a re-analysis of the deposited data

How the results depend on the processing

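No paired analysis was possible because the study has 1 group. Of 70 recomputed values, 55 kept their direction and stayed within the spread between the animals (counts within 1.5 times), 12 moved and 3 changed sign. For levels, ratios and shares, leaving out 1 of the 2 animals returns the other animal's value, which lies within that spread by construction. Such values are counted among the 55 but are no check of them. With TPM rescaled over nuclear protein-coding genes the median was 105.2 TPM, and with protein_coding transcripts of the alignment-derived table, chosen after seeing the data, 34.8 TPM. The same transcripts gave log2 ratios of 4.34, 5.29 and 3.08 for the pairs led by Psmb5, Psmb6 and Psmb7, -1.10 for Psme3 over Psme1 and Psme2, and an immune share of 6.24%; that share was 7.85% with protein_coding transcripts of the FASTQ-derived table, where the Psme3 ratio was -1.35 over all transcripts. The count of members 1.5-fold apart was 2 by expected counts (Psmb8 and Psmb9) and 0 at 2-fold. The median animal difference was -0.0038 with a pseudocount of 1, -0.17 without centring, -0.0084 in the FASTQ-derived table and 0.0045 on expected counts, so its sign cannot be read; the cause was not tested. Leaving out either animal gave 35.6 to 39.1 TPM for the median, 3.07 to 3.89, 4.55 to 5.16 and 1.52 to 2.02 for the pairs, -1.81 to -1.59 for Psme3, 10.1 to 14.7% for the immune share, 41 expressed members and 35 to 37 shared leading transcripts. Depth limits Psmb9 (71 and 109 counts) and Psma8 (16 and 6) most.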
